A study of Homo sapiens with 3 samples.

Results

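TAF4 binding across protein-coding genes was described in HuCCT1 cells, a human cell line established from a cancer of the bile ducts (cholangiocarcinoma, CCA). The values came from chromatin immunoprecipitation followed by sequencing (ChIP-seq), with 1 library for TAF4, 1 for SBNO1 (Strawberry Notch 1) and 1 for control immunoglobulin (IgG). For each antibody, immunoprecipitates of several biological replicates had been pooled before sequencing, so that there was no replicate, and no difference was tested. The labels name no genetic change and no treatment, and all 3 libraries came from the same line. A peak list holds no read numbers, and the sequencing depth of the libraries is therefore unknown.

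The members were selected on the peak lists themselves. Of 12763 TAF4 peaks, 11377 (89.1%) did not share a single base with any of the 1598 IgG peaks and were kept, and 1386 were removed. The whole series held 30508 peaks. A gene was called TAF4-marked when such a peak lay within 1 kb of any of its coding transcription start sites (TSS), and a peak in reach of several genes marked all of them. By this rule 6062 of 19689 protein-coding genes were marked, which is 30.8% (exact 95% Clopper-Pearson interval 30.1% to 31.4%). With only the peaks at or above the median score of 912 the share was 19.4%. The SBNO1 library took no part in the selection. Because TAF4 and IgG peaks chose the members, these numbers describe the selection, and all intervals cover counting error only.

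TAF4 is a subunit of TFIID, the general transcription factor that contains the TATA-box binding protein (TBP) and its associated factors (TAFs). TFIID recognises the core promoter around the TSS and starts the assembly of the other general transcription factors and of RNA polymerase II. It is used both at promoters with a TATA box and at the CpG-rich promoters of genes that most cells transcribe.

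Promoter sequences are shown first, because they let the letters under the peaks be read beside the counts of motifs given later. Each run is the 150 bases before the annotated main (Ensembl canonical) TSS, 5′ to 3′ on the strand of the gene, read from the GRCh38 reference sequence. Capitals mark exact matches, on either strand, of 10 short motifs: KLF/SP (GGGCGG), ETS (CCGGAA), NFY (CCAAT), NRF1 (GCATGCG), YY1 (ATGGCGG), CRE (TGACGTCA), AP-1 (TGAGTCA), ZNF143 (ACTACAA), the TATA box (TATAAA) and the E-box (CACGTG). None of these contains another, but neighbouring matches can share bases. The first 6 runs belong to marked genes of the transcription, RNA, protein synthesis and protein turnover lists, 1 for each of 6 motifs. These 6 genes have the highest peak score, 1000, which other genes share, so that further conditions decided the choice. Among the conditions were that all 150 bases lie within the TAF4 peak and that none overlaps an annotated exon. Neither property is therefore a result.
HNRNPUL1, an RNA-binding protein of the hnRNP family, for ETS, chr19:41264222-41264371, plus strand: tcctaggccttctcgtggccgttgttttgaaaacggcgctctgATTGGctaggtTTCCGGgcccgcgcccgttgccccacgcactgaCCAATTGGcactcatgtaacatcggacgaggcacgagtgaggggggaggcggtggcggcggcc
EIF1, a factor of start codon choice in translation, for NFY, chr17:41688735-41688884, plus strand: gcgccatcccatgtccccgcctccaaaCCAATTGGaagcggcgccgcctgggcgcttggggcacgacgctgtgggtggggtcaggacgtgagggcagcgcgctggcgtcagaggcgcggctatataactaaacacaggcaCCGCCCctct
DNAJC3, a co-chaperone of the endoplasmic reticulum, for YY1, chr13:95676989-95677138, plus strand: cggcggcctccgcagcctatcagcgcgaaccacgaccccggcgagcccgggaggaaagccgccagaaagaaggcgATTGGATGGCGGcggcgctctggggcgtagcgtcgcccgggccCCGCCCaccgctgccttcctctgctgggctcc
MRPS18B, a protein of the mitochondrial ribosome, for NRF1, chr6:30617690-30617839, plus strand: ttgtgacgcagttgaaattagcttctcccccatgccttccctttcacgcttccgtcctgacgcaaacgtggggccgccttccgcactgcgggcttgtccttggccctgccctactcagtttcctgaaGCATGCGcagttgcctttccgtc
SNRNP40, a spliceosome protein, for CRE, chr1:31296789-31296938, minus strand: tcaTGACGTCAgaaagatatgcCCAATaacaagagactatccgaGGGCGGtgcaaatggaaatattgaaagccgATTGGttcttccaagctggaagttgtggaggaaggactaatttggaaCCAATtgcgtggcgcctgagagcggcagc
MRPL32, another protein of the mitochondrial ribosome, for ZNF143, chr7:42932226-42932375, plus strand: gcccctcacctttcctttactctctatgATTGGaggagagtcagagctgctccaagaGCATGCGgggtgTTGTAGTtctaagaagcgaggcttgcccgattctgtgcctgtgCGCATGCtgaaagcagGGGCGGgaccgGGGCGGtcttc

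A further 2 runs come from the marked genes with the highest-scoring peak among AP-1 factors and CCA driver genes whose upstream bases lie within the peak and outside annotated exons. The last run is the promoter of HOXA6, a developmental gene with CpG-rich sequence and without a TAF4 peak, shown for contrast.
JUNB, a subunit of AP-1, chr19:12791336-12791485, plus strand: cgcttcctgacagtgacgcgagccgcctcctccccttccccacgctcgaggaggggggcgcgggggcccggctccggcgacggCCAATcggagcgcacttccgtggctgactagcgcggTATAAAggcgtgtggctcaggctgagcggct
STK11, a kinase and tumor suppressor, chr19:1205628-1205777, plus strand: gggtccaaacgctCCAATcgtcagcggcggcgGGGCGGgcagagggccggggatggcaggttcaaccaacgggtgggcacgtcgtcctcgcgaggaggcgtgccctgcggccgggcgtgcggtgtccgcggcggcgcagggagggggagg
HOXA6, chr7:27147775-27147924, minus strand: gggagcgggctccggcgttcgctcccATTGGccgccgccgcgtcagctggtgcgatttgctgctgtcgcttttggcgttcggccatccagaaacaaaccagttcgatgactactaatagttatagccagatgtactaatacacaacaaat

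The runs differ in composition as well as in motifs. In JUNB an exact match of the TATA box letters begins 31 bases before the TSS. It is the only exact match of TATAAA among these 9 runs, and variants of these letters were not searched. MRPL32 carries NRF1 matches that begin 93 and 38 bases before the TSS and a ZNF143 match that begins 81 bases before it. In the 300 bases at the TSS (250 before and 50 after), GC content ranged from 50.7% in MRPS18B to 75.3% in STK11. HOXA6 had a GC content of 60.3% and a ratio of observed to expected CpG of 1.06, the same ratio as STK11 to this precision. Its high ratio and its lack of a TAF4 peak were conditions of its choice and not results.

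The label of the cells was read beside 4 lists of marker genes, which cannot settle it. Among 18 markers of bile duct epithelium, 11 were TAF4-marked (61.1%, 35.7% to 82.7%). These included the keratin genes KRT7, KRT8, KRT18 and KRT19, the transcription factor gene SOX9, the adhesion genes EPCAM, CDH1 and CLDN4, and the anion exchanger gene SLC4A2. KRT8 and KRT18 have the same best peak, which lies 556 bp from the nearest TSS of KRT18. ANXA4, AQP1, CFTR, MUC1, ONECUT1, PKHD1 and SPP1 had no TAF4 peak within 1 kb. Only 1 of 18 hepatocyte markers (SERPINA1, which encodes alpha-1 antitrypsin), 1 of 15 immune cell markers (CD68) and 1 of 13 stromal and endothelial markers (COL1A1) was marked, and albumin (ALB), CD45 (PTPRC) and the endothelial PECAM1 were not. No IgG peak lay within 1 kb of any gene of these 4 lists. The lists also differed in promoter sequence. A CpG-rich promoter, as defined further on, was found at 8 of 18 bile duct markers. For hepatocyte markers this was 1 of 18, for immune cell markers 1 of 15 and for stromal and endothelial markers 1 of 13. The part of this difference in the shares was not tested. All peaks named were positions of TAF4 and not levels of RNA.

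The TAF4 peaks were divided between promoters and positions farther away. Within 1 kb of a coding TSS were 5810 of the 11377 peaks (51.1%, 50.1% to 52.0%), and 4977 of these (85.7%) covered a TSS. A further 1455 peaks (12.8%) lay at 1 to 10 kb and 4112 (36.1%) beyond 10 kb. Relative to the nearest TSS, with negative values upstream, the centre of the promoter peaks had a median position of -55 bp and quartiles of -129 and 2 bp. In the densest 100 bp, just upstream of the TSS, there were 2337 peak centres, or 20.5% of the list. IgG peaks were less often at a TSS, with 231 of 1598 (14.5%) within 1 kb, and the TAF4 peaks removed for IgG overlap resembled them with 232 of 1386 (16.7%). A gene with an IgG peak within 1 kb was rare, 277 genes or 1.41% of all, and 59 of the 6062 marked genes (0.973%) also had one beside their kept TAF4 peak.

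**Figure D1:**
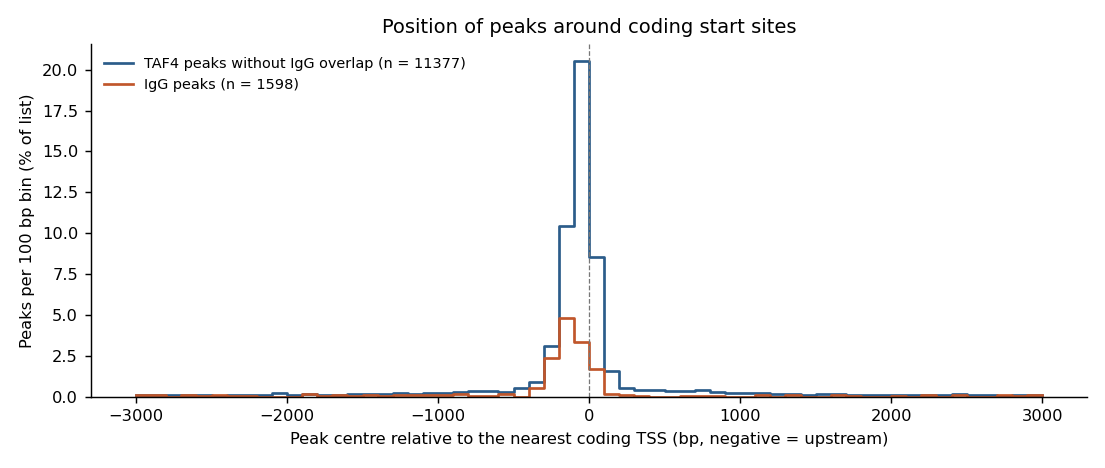
Position of peak centres around the nearest coding TSS in bins of 100 bp (horizontal axis, bp) as a percentage of each list (vertical axis), for the 11377 TAF4 peaks without IgG overlap and the 1598 IgG peaks. The TAF4 curve reaches 20.5% in the 100 bp just upstream of the TSS, where the IgG curve stands at 3.38%, after its own maximum of 4.82% in the bin before.

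Promoter peaks had higher scores and were wider than the peaks far from a TSS. Each peak in the list carries a score, a whole number without a stated scale. Its median was 990 at promoters and 835 elsewhere. The highest score, 1000, acted as a cap and was shared by 48.9% of promoter peaks and 30.9% of the others, and such peaks were ordered by width. Median width was 411 bp at promoters and 376 bp elsewhere. The TAF4 peaks removed for IgG overlap stood above both, with a median score of 1000, 66.7% at the cap and a median width of 513.5 bp.

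Most promoter peaks marked 1 gene. This held for 4721 of 5810 (81.3%), whereas 1036 (17.8%) marked 2 genes and 53 (0.912%) marked 3 or more. The largest number was 4 genes for a single peak, found for 3 peaks, 1 of them 701 bp wide on chromosome 14 (BAG5, COA8, ENSG00000256500 and KLC1), 1 of them 366 bp wide on chromosome 19 (BORCS8, BORCS8-MEF2B, MEF2B and RFXANK) and 1 of them 751 bp wide on chromosome 7 (ANKIB1, ENSG00000285953, ENSG00000289027 and KRIT1). Genes that share a peak are thus not independent observations. Among 1856 genes whose main TSS lies head to head with that of another gene within 1000 bp, 1219 were marked (65.7%, 63.5% to 67.8%), compared with 4843 of 17833 other genes (27.2%, 26.5% to 27.8%). The rule lets a single peak mark both genes of such a pair, which raises their share by design. The part of this in the contrast was not tested, and the interval does not allow for the pairing. In the other direction, 5283 marked genes had 1 peak, 692 had 2 and 87 had 3 or more, up to 7 peaks at SEPTIN9 (a cytoskeletal GTPase gene with 28 coding TSS) and at TNIP1 (an inhibitor of NF-kB signalling with 11). The share of marked genes was 18.7% with 1 annotated TSS, 30.0% with 2 to 4 and 41.7% with 5 or more, and it is part of the rule that each additional TSS offers another chance of a peak in reach.

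The 10 marked genes with the highest-scoring and widest promoter peaks had different roles. All had the capped score of 1000 and an SBNO1 peak that overlapped the TAF4 peak. The widest of these, of 2214 bp at chr5:57172406-57174619, covered the TSS of GPBP1, which encodes a transcription factor of GC-rich promoters. SETD5, for a chromatin protein with a SET domain, had a peak of 1845 bp, and F2RL1, for the protease-activated receptor 2, had a peak of 1797 bp. A single peak of 1783 bp on chromosome 11 marked both LPXN, for the adhesion adaptor leupaxin, and ZFP91, for a zinc finger ubiquitin ligase. Likewise, a single peak of 1675 bp at chr12:54279534-54281208 marked the divergent genes CBX5 (heterochromatin protein 1 alpha) and HNRNPA1 (an RNA-binding protein of splicing). MYC, the oncogenic transcription factor, followed with 1657 bp, then LRP6, a Wnt co-receptor, with 1512 bp and SGMS2, a sphingomyelin synthase, with 1507 bp.

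The genes of the transcription machinery itself were marked at 52 of 79 (65.8%, 54.3% to 76.1%), beside the 30.8% of all genes. In TFIID, 11 of 16 subunit genes were marked: TBP, TAF1, TAF2, TAF5, TAF6, TAF7, TAF9, TAF10, TAF11, TAF12 and TAF13. TAF4 itself, its paralog TAF4B, TAF3, TAF8 and TAF9B had no TAF4 peak within 1 kb. Of the marked subunit genes, TAF6 had the widest peak at the capped score, 634 bp that also marked its neighbour CNPY4, and TAF1, the largest subunit, had a peak of 460 bp with its centre at -121 bp from its TSS. TAF13 had the lowest score of the 11 (729, with a width of 320 bp). All 11 had a peak that covered a TSS, and at TAF5, with 2 peaks in reach, the one ranked first by score and width lay 458 bp from the nearest TSS. No IgG peak lay near a TFIID gene.

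The remaining lists of the machinery lay between 61.5% and 66.7%. Of the other general transcription factors, 11 of 17 genes were marked, with GTF2E1 (TFIIE, a peak of 726 bp) and GTF2H1 (TFIIH, 665 bp) in front, and CCNH had only a peak that overlapped IgG. For RNA polymerase II there were 8 of 13 subunit genes, and POLR2A, which encodes the catalytic subunit, had the widest peak, 1198 bp. Mediator, the complex that connects activators with the polymerase, had 22 of 33 genes marked, including MED1 and MED29. MED12, MED13 and MED14 had no TAF4 peak, which is mentioned after their values were seen.

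RNA processing genes followed at 68 of 95 (71.6%, 61.4% to 80.4%). In the spliceosome and SR protein list 49 of 69 genes were marked, led by SNRPA of the U1 particle with a peak of 1364 bp and by the splicing regulator SRSF2 with 1061 bp. In the hnRNP list 19 of 26 genes were marked, and their peaks had the widest median of the lists with 10 or more marked genes, 665 bp, compared with 411 bp for promoter peaks as a whole. The 6 hnRNP genes without any TAF4 peak were the copies HNRNPA1L2, HNRNPA1L3 and the HNRNPCL1 to HNRNPCL4 group, which were named after their values were seen. Short reads from near-identical copies cannot always be placed, so that a missing peak is uncertain there.

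Protein synthesis had the highest share of the 7 roles, 203 of 247 genes (82.2%, 76.8% to 86.7%). Among cytosolic ribosomal protein genes, 76 of 79 (96.2%, 89.3% to 99.2%) had a TAF4 peak without IgG. The other 3, RPL27 and RPL37 among them, had a TAF4 peak that overlapped an IgG peak, so that no gene of the list was without TAF4. Their 76 peaks were distinct, 65 were at the capped score, the median width was 504 bp, and an SBNO1 peak overlapped at 71 (93.4%). RPL10 had the widest, with 1374 bp, and RPL7 followed with 1164 bp. Mitochondrial ribosomal protein genes were marked at 59 of 83 (71.1%), with MRPS18B (1085 bp) and MRPS7 (795 bp) in front, and 21 had no TAF4 peak at all, MRPL14 and MRPS2 among them, again named after their values were seen. Translation initiation factors reached 37 of 47 (78.7%), with EIF1 (1331 bp) and EIF2A (925 bp) in front. The aminoacyl-tRNA synthetases, which charge tRNAs with amino acids, reached 31 of 38 (81.6%), with TARS1 (1146 bp) and WARS2 (838 bp) in front.

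Energy and protein turnover genes were marked at 157 of 232 (67.7%, 61.2% to 73.6%). In the respiratory chain and ATP synthase list 56 of 78 genes were marked, among them ATP5MC1 for the c subunit of ATP synthase (813 bp) and NDUFB3 of complex I (688 bp). Of the proteasome genes 32 of 44 were marked, with PSMC6 and PSMA3 in front. All 3 inducible subunit genes of the immunoproteasome, PSMB8, PSMB9 and PSMB10, had no TAF4 peak, and they are named after their values were seen. For chaperones there were 48 of 76, with HSP90B1 (1318 bp) and HSPA8 (1100 bp) in front, and for ubiquitin-conjugating enzymes 21 of 34, with UBE2B and UBE2D2. Over the first 4 roles together 480 of 653 genes were marked (73.5%, 69.9% to 76.9%). The share with an IgG peak within 1 kb was also higher in these roles than the 1.41% of all genes. It was 2.53% for transcription machinery, 3.16% for RNA processing, 3.24% for protein synthesis and 1.72% for energy and protein turnover. For families with expression in few tissues it was 0.390%. The part of IgG signal in the order of the roles was not tested.

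**Figure D2:**
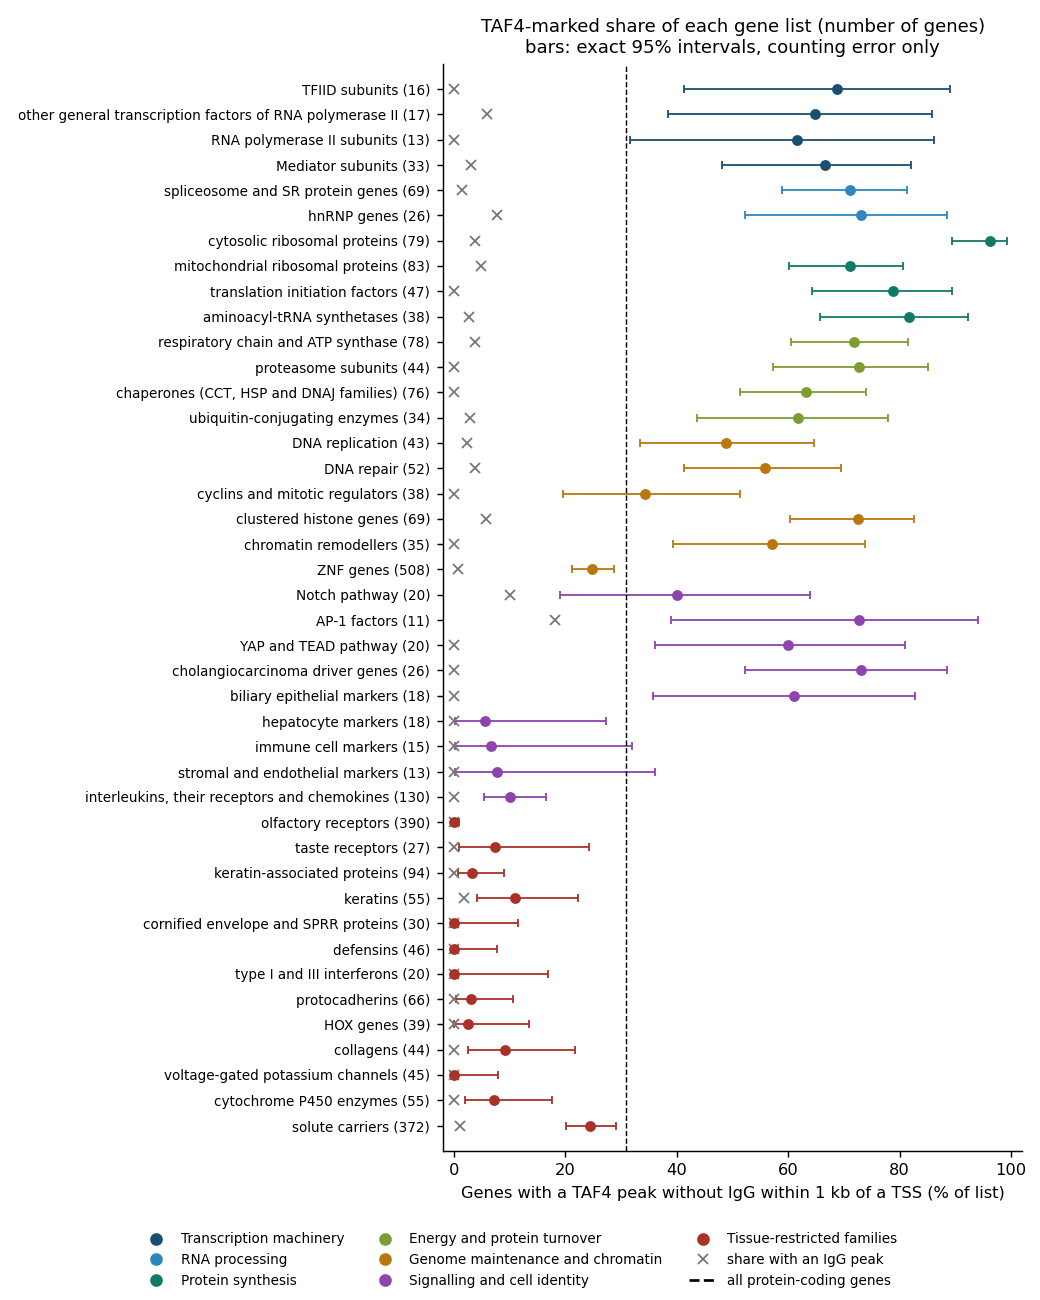
Share of genes with a TAF4 peak without IgG within 1 kb of a coding TSS (horizontal axis, % of each list) for 42 gene lists, coloured by role, with the number of genes in brackets. Points are shares, bars are exact 95% intervals, grey crosses are shares with an IgG peak and the dashed line is the 30.8% of all genes. Cytosolic ribosomal proteins stand at 96.2% and olfactory receptors at 0.

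Genome maintenance lists were closer to the background of 30.8%. DNA replication genes were marked at 21 of 43 (48.8%, 33.3% to 64.5%). These included MCM2, a subunit of the replicative helicase that the study names, with a peak of 284 bp at the capped score and its centre at -90 bp, which TPRA1 shares, and PCNA and CDC6 with peaks of 750 and 703 bp. MCM3, MCM5 and MCM6, named after their values were seen, had none. DNA repair genes reached 29 of 52 (55.8%), with XRCC6 in front. Cyclins and mitotic regulators reached 13 of 38 (34.2%, 19.6% to 51.4%), an interval that includes the background, with AURKA and BUB3 in front, and the cell cycle genes CCNE1, PLK1 and RB1 were without a TAF4 peak and are named after their values were seen. Chromatin remodeller genes reached 20 of 35 (57.1%), led by CHD1 with a peak of 1420 bp and by PBRM1 with 779 bp.

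Clustered histone genes were marked at 50 of 69 (72.5%, 60.4% to 82.5%), but only 38 different peaks served them as best peak, since neighbouring histone genes share peaks. H2AC19 and H3C15 were both marked by a peak of 1166 bp on chromosome 1. Their promoters differed from those of the other high-share lists: 10 of 69 (14.5%) were CpG-rich in the sense defined further on. ZNF genes, which encode zinc finger proteins and of which many are repressors, lay below the background with 126 of 508 (24.8%, 21.1% to 28.8%), although 396 of 508 had CpG-rich promoters. ZNF335 and ZNF408 had the highest-scoring peaks of this list. Their TAF4 peaks were less often accompanied by SBNO1, at 60 of 126 marked ZNF genes (47.6%), compared with 4156 of 6062 marked genes (68.6%) as a whole.

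Signalling and identity lists gave 74 of 271 (27.3%), and their members fell into lists with high and with low shares. AP-1 genes, which encode transcription factors of which some are immediate early, were marked at 8 of 11 (72.7%, 39.0% to 94.0%): JUN, JUNB, JUND, FOS, FOSB, FOSL1, FOSL2 and BATF. FOSL1 and BATF each had 1 peak in reach that did not cover a TSS. Its edge lay 805 bp from the nearest TSS of FOSL1 and 738 bp from that of BATF. FOS had the widest promoter peak of all marked genes, 2360 bp with a score of 925, and FOSL2 had 4 peaks. ATF3 had a TAF4 peak that overlapped IgG, and 2 of the 11 AP-1 genes had an IgG peak within 1 kb (18.2%), the highest IgG share of all lists. Of the YAP and TEAD pathway 12 of 20 genes were marked (36.1% to 80.9%). The co-activators YAP1 and WWTR1, the DNA-binding partners TEAD1 and TEAD4, the kinases STK3 and STK4 and the target genes CCN1, CCN2 and ANKRD1 were among them, whereas the kinases LATS1 and LATS2 and the tumor suppressor NF2 were not.

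The Notch pathway was marked at 8 of 20 (19.1% to 63.9%), an interval that includes the background. The marked genes were the receptors NOTCH1 and NOTCH2, the ligand JAG1, the DNA-binding protein RBPJ, the co-activators MAML1 and MAML2, the protease ADAM10 and the feedback gene NRARP. The receptors NOTCH3 and NOTCH4 and the ligands DLL1, DLL3, DLL4 and JAG2 had no TAF4 peak within 1 kb. The same held for the co-activator MAML3 and the target genes HES5, HEY1 and HEY2. HES1, the classical target gene, and NUMB, an inhibitor of the receptors, had TAF4 peaks that overlapped IgG peaks, so that they did not count.

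The CCA driver genes were marked at 19 of 26 (73.1%, 52.2% to 88.4%), and none had an IgG peak within 1 kb. The chromatin regulator genes ARID1A, ARID2 and PBRM1 were marked, as were signalling genes such as NRAS, PIK3CA, ERBB2, EPHA2, TGFBR2 and NF1. MYC, CCND1, MDM2, CDKN2A and STK11, which act on growth, the cell cycle and its arrest, were marked as well, together with the metabolic gene IDH1 and the epithelial transcription factor gene ELF3. BAP1, BRAF, FGFR2, IDH2, KMT2C, RNF43 and SMAD4 had no TAF4 peak within 1 kb. Of the 19 best peaks, 11 were at the cap. ARID2 was marked by a peak whose edge lay 623 bp from the nearest TSS. LIF, a cytokine gene that the study also names, was marked by a peak of 542 bp with a score of 403 and its centre at -268 bp, and the SBNO1 gene by a peak of 1258 bp with a score of 917.

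Interleukins, their receptors and chemokines were marked at 13 of 130 (5.43% to 16.5%). IL3RA and IL9R each stand in this list under separate entries, all counted and all without a TAF4 peak. The marked genes included IL6, LIF and the receptor genes IL6R and IL6ST of the IL6 family, the neutrophil chemokine genes CXCL2, CXCL5 and CXCL8, and IL1RN, for the antagonist of the IL1 receptor. SBNO1 overlapped the TAF4 peak at 11 of the 13.

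Families with expression in few tissues were marked least, at 113 of 1283 (8.81%, 7.31% to 10.5%), and 91 of these were solute carriers. No gene was marked among 390 olfactory receptors (0 to 0.941%), 45 voltage-gated potassium channels (0 to 7.87%), 46 defensins (0 to 7.71%), 30 cornified envelope and SPRR proteins (0 to 11.6%) and 20 type I and III interferons (0 to 16.8%). The potassium channel list includes the accessory subunits with KCNE symbols. As with the hnRNP copies, a missing peak is uncertain where family members are near-identical, which was not examined. HOX genes had 1 of 39, HOXB6 with a peak of 202 bp. Protocadherins had 2 of 66 (PCDH9 and PCDHGC3), keratin-associated proteins 3 of 94 (KRTAP2-3, KRTAP2-4 and KRTAP4-6), taste receptors 2 of 27 (TAS1R1, in reach of a peak that covers its neighbour NOL9, and TAS2R1), cytochrome P450 enzymes 4 of 55 and collagens 4 of 44. Keratins had 6 of 55, and 4 of them are the simple epithelial keratins KRT7, KRT8, KRT18 and KRT19. CYP51A1, an enzyme of cholesterol synthesis that most cells use, had the highest-scoring peak of the cytochrome P450 list, with 974 bp. Solute carriers, a mixed family of transporters, had 91 of 372 (24.5%, 20.2% to 29.2%), led by SLC3A2, the heavy chain of amino acid transporters, with 860 bp and 3 peaks. This list was taken by symbol and also holds genes that are only named after a carrier, such as SLC4A1AP and SLC7A6OS.

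Symbol roots, the letters before the first digit, gave a grouping that did not depend on the gene lists. Of 103 roots with 20 or more genes, 15 had at least 60% of their genes marked, such as RPL (90.4%), DDX helicases (76.3%), NUP nucleoporins (73.9%) and POLR polymerase subunits (70.6%). At the other end, 8 roots had no marked gene, among them the C-type lectins (CLEC, 31 genes), CC chemokines (CCL, 26 genes), PRAMEF (22 genes) and the UDP-glucuronosyltransferases (UGT, 22 genes). Wherever members of a root are near-identical copies, a missing peak is uncertain, and this was not examined. Genes in none of the 42 lists were marked at 5146 of 16752 (30.7%), which is close to the share of all genes. In all, 22 lists had an interval wholly above the share of all genes and 16 wholly below it.

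SBNO1 peaks were then set beside the TAF4 peaks. An SBNO1 peak overlapped 3773 of the 5810 TAF4 promoter peaks (64.9%, 63.7% to 66.2%) and 4540 of the 5567 TAF4 peaks elsewhere (81.6%, 80.5% to 82.6%), so that the overlap was less frequent at promoters. Promoter peaks with SBNO1 had a median score of 1000 and a median width of 452 bp, whereas those without had 884 and 352 bp. By gene, 4156 genes, or 21.1% of all, had a TAF4 peak that overlapped SBNO1. Among lists with 10 or more marked genes this share of the marked genes ranged from 47.6% in ZNF genes to 93.4% in cytosolic ribosomal proteins. Of the TAF4 peaks removed for IgG overlap, 1280 of 1386 (92.4%) also overlapped SBNO1.

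Promoter sequence was compared next, in the 300 bases at the main TSS of 19688 genes. A promoter was called CpG-rich when its GC content was at least 50% and its observed to expected CpG ratio at least 0.6. Of the marked genes 5374 of 6061 (88.7%, 87.8% to 89.5%) had a CpG-rich promoter, compared with 7571 of 13627 unmarked genes (55.6%, 54.7% to 56.4%). Read from the other side, 41.5% of CpG-rich and 10.2% of other promoters were marked. The share did not rise with GC content throughout. It was 4.67% under 40% GC, reached 41.0% at 60 to 65% and 40.8% at 65 to 70%, and was 23.6% (22.0% to 25.1%) at 75% or more. The share with an IgG peak followed a similar course at a low level, with 0.298% under 40% GC, 2.31% at 60 to 65% and 0.416% at 75% or more, and its part in the TAF4 course was not tested.

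**Figure D3:**
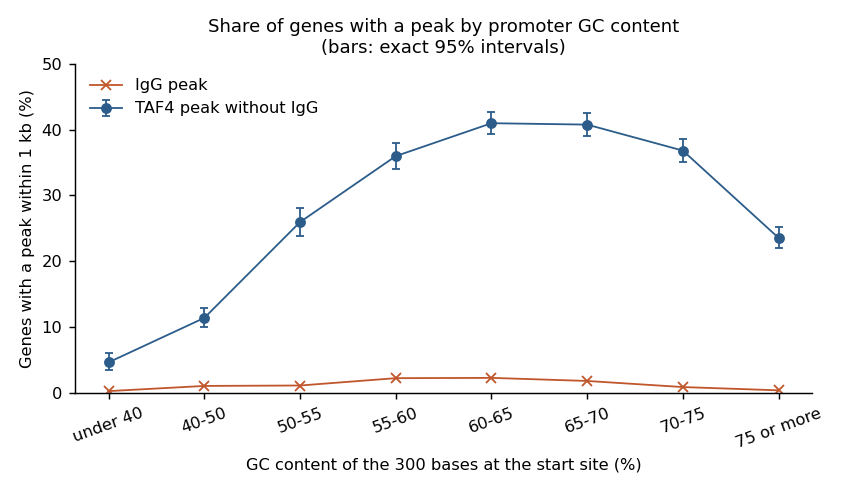
Share of genes with a TAF4 peak without IgG (circles, bars are exact 95% intervals) and with an IgG peak (crosses) within 1 kb of a TSS (vertical axis, %) by the GC content of the 300 bases at the main TSS (horizontal axis, %). TAF4 rises from 4.67% in the lowest class to 41.0% at 60 to 65% GC and falls to 23.6% in the highest.

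CpG-rich sequence did not set apart all lists. Among voltage-gated potassium channel genes 34 of 45 had a CpG-rich promoter and none of the 34 was marked. HOX genes had 27 of 39, again without a marked gene, HOXA6 as printed above among them. Collagens had 24 CpG-rich promoters of 44 and 1 of the 24 was marked. By contrast, 67 of 70 CpG-rich promoters of cytosolic ribosomal protein genes (95.7%) and 47 of 63 in the spliceosome list (74.6%) were marked. Bile duct markers had 8 CpG-rich promoters of 18, of which 6 were marked.

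Short motifs were counted as exact letters and not as binding sites. In the 300 bases, KLF/SP was found in 61.6% of all promoters and 74.8% of those of marked genes, NFY in 36.1% and 43.1%, ETS in 22.7% and 35.7%, YY1 in 7.82% and 14.2%, NRF1 in 5.10% and 7.38%, E-box in 8.75% and 11.2%, ZNF143 in 2.96% and 4.41% and CRE in 2.72% and 4.32%. The TATA box (9.65% and 5.79%) and AP-1 (3.56% and 2.62%) were less frequent in marked genes. As GC-rich letters are found more often in CpG-rich sequence, the shares were read again within CpG-rich promoters, of which 41.5% were marked. There, 58.8% (56.2% to 61.4%) of genes with YY1 letters were marked and 39.4% without, 54.6% with ZNF143 and 41.1% without, 52.5% with ETS and 36.8% without, and 51.2% with NFY and 36.4% without. KLF/SP turned around within CpG-rich promoters, with 40.6% (39.7% to 41.6%) marked where it was present and 45.3% (43.3% to 47.3%) where it was absent. The TATA box (39.7% to 48.4% with, 40.5% to 42.3% without) and AP-1 (37.5% to 50.3% with, 40.6% to 42.3% without) gave overlapping intervals. NFY letters occur in all runs printed above but that of MRPS18B, and so also in that of the unmarked HOXA6.

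**Figure D4:**
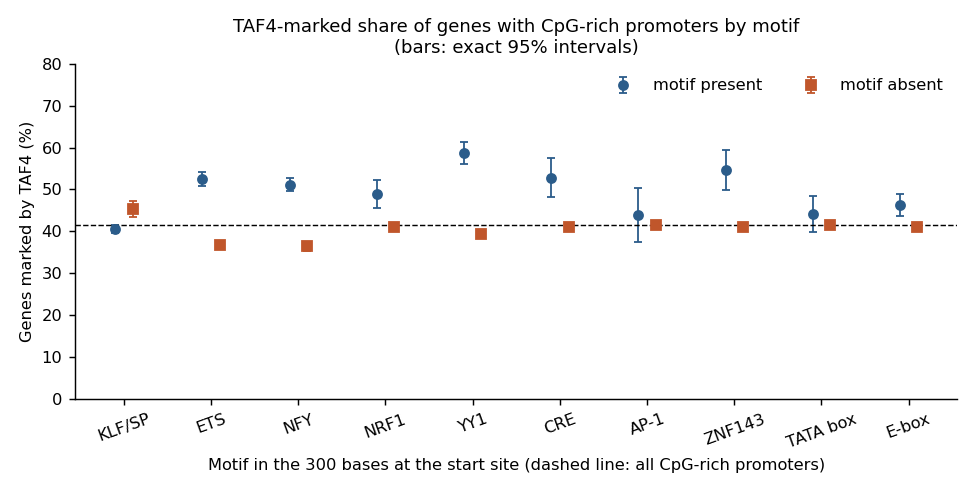
Share of genes marked by TAF4 (vertical axis, %) among genes with a CpG-rich promoter, for promoters with (circles) and without (squares) each of 10 motifs in the 300 bases at the main TSS, with exact 95% intervals and a dashed line at the 41.5% of all CpG-rich promoters. YY1 stands highest with 58.8% and KLF/SP lies below the promoters without it.

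The marked genes were not spread evenly over the chromosomes. The highest shares were found on chromosomes 5 (361 of 872, 41.4%, 38.1% to 44.8%), 14 (244 of 602, 40.5%) and 17 (441 of 1158, 38.1%), followed by 12 (35.6%) and 20 (34.8%). The lowest shares were found on 18 (42 of 262, 16.0%, 11.8% to 21.0%), X (147 of 853, 17.2%) and 16 (158 of 843, 18.7%, 16.2% to 21.5%), followed by 21 (21.5%) and 22 (100 of 434). On Y, 2 of 63 genes were marked. The copy number of the chromosomes in HuCCT1 cells was not analysed here, and its part in these shares and in the peak densities given below was not tested. Of the 23 chromosomes without Y, 7 had an interval wholly above the share of all genes and 8 wholly below it.

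The order was read again within promoters of similar sequence and within the lists. Within CpG-rich promoters 54.2% were marked on chromosome 5, 52.1% on 11, 51.4% on 17 and 50.9% on 14, compared with 18.3% on 18, 24.1% on 16 and 28.6% on X. Chromosomes 16 and 18 had 70.3% and 79.4% CpG-rich promoters, more than the 65.8% of all genes. Of the genes of the first 4 roles, which were marked at 73.5% in all, 38 of 43 (88.4%) were marked on 17, 29 of 39 (74.4%) on 5 and 13 of 16 on X. On 16 this was 9 of 23 (39.1%, 19.7% to 61.5%) and on 18 it was 3 of 7. Chromosome X was thus low for all genes and not for these lists.

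**Figure D5:**
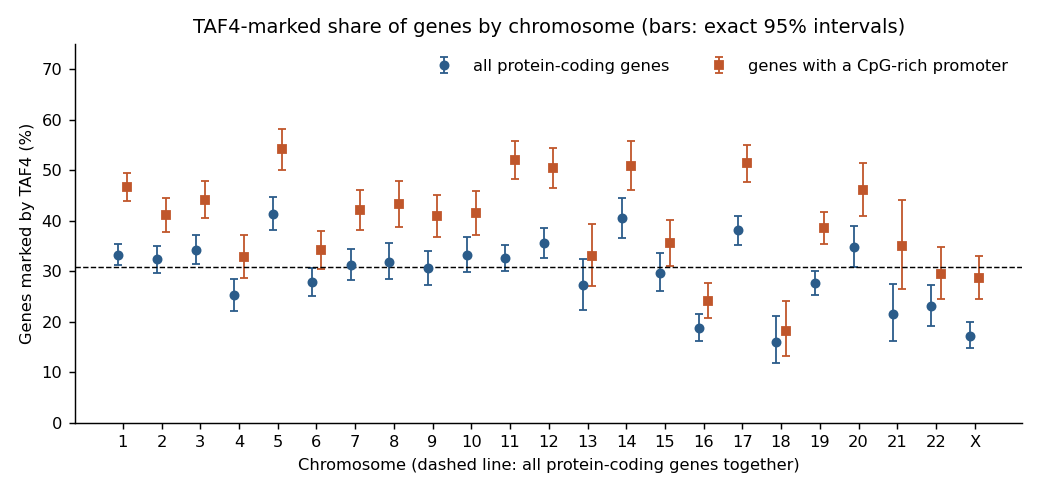
Share of genes marked by TAF4 (vertical axis, %) on each chromosome, for all protein-coding genes (circles) and for genes with a CpG-rich promoter (squares), with exact 95% intervals and a dashed line at the 30.8% of all genes. Chromosomes 5, 14 and 17 stand highest for all genes, and 16, 18 and X lowest.

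TAF4 peaks away from promoters varied in the same direction. There were 4.49 such peaks per Mb on chromosome 17 and 2.81 on 5, but 0.852 on 16, 0.423 on 18 and 0.327 on X. Over the 23 chromosomes, the share of marked genes and the density of these distant peaks had a Pearson r of 0.70 and a Spearman rho of 0.75, which is a description of a single library, with both values taken from the same peak list. With genes per Mb r was 0.08 and rho 0.21. With IgG peaks per Mb r was 0.14 and rho 0.46, and IgG peaks were densest on 21 (2.55 per Mb) and 17 (1.37 per Mb). The part of IgG density in the shares was not tested. SBNO1 overlap of the promoter peaks varied too, from 30.8% on 18 and 34.9% on 16 to 74.8% on 5 and 78.2% on 11.

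Smaller stretches showed wider ranges. In 283 windows of 10 Mb with 20 or more genes, the highest share was 21 of 30 genes at 90 to 100 Mb of chromosome 5, followed by 16 of 23 (69.6%) at 30 to 40 Mb of chromosome 12. The lowest was 1 of 41 (2.44%) at 20 to 30 Mb of chromosome 19, and 1 of 38 (2.63%) in the first 10 Mb of X. The longest runs of neighbouring marked genes held 11 genes. The run on chromosome 17 comprised BLTP2, SDF2, SUPT6H, PROCA1, RAB34, RPL23A, TLCD1, NEK8, TRAF4, FAM222B and ERAL1, which 7 different best peaks served. The run on chromosome 6 comprised ZNF184 and 10 histone genes (H2BC13, H2AC13, H3C10, H2AC14, H2BC14, H4C11, H4C12, H2AC15, H2BC15 and H2AC16) with 8 best peaks. The longest runs without a marked gene held 67 genes, from the main TSS at 47980559 to that at 57237250 on chromosome 11, and 61 genes on chromosome 8. Whether near-identical copies, from which reads cannot always be placed, lie in these runs was not examined.

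Removal of IgG-overlapping peaks took 218 genes out of the marked set, since 6280 genes were in reach of any TAF4 peak. The 10 of them with the highest-scoring and widest peaks included HES1, SLC25A45, RBM39, CLCF1, ENSG00000256514, ATF3, SF1 and PPM1B, with peak widths of 1208 to 1465 bp. HES1 and ATF3 are transcription factors of the Notch response and of stress, RBM39 and SF1 act in splicing, and CLCF1 is a cytokine of the IL6 family, which shares its peak with ENSG00000256514.

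The members closest to the limits were as follows. Just inside 1 kb lay peaks at 994 bp from a TSS of BMAL2, 994 bp from NEU2 and 995 bp from CLDN4, which has 2 other peaks in reach, and just outside lay peaks at 1006 bp from RSF1, 1009 bp from SCUBE1 and 1010 bp from KDM2A. The kept peaks closest to an IgG peak had 59, 64 and 88 bases between them, and the smallest overlap of a removed peak was 62 bp. In all, 145 kept peaks lay within 1 kb of an IgG peak, 40 of them at promoters.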

How the data were processed

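Chromatin of HuCCT1 cells had been prepared with an enzymatic kit and immunoprecipitated for TAF4, SBNO1 or with IgG, and single-end reads were trimmed with ktrim. The submitters' processing notes name Bowtie2 2.5.4, Genrich 0.6.1 and the build GRCh38.p14, whereas the study's methods name normR as the peak caller, so that the caller is uncertain. The study reports a much larger share of TAF4 peaks near a TSS and far fewer TAF4-bound genes than were counted here. The peak list used here may therefore not be the set behind its figures. The peak threshold, the use of IgG as control in the calls, duplicate handling and excluded regions were not given in the sources used here. The deposited score of each peak is the authors' value, a whole number up to 1000 whose scaling was not stated, and it was used only to rank and filter peaks. The authors' peak lists held 1 library per antibody, and read depth is unknown.

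TSS were 78567 sites of protein-coding transcripts of 19689 genes in GENCODE 44. Genes were counted by annotation entry. A symbol with separate entries, such as IL3RA, IL9R or the solute carrier SLC25A6, was therefore counted for each entry. The distance was measured from the nearest peak edge. Peaks overlapped when they shared 1 bp or more. Coordinates are 1-based. Promoter windows were read from the GRCh38 sequence at the Ensembl canonical TSS, and 1 gene whose window held unknown bases was left out. Shares have exact Clopper-Pearson intervals at 95%. No p-values were computed, because genes and peaks are not replicates. The 42 gene lists were defined by symbol and, like the members, were chosen with earlier results of these data known.

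Named genes were the 10 marked genes with the highest-scoring peak (ties by width, then position), the leading 2 marked members of each list, all TFIID subunits, CCA drivers and bile duct markers, SBNO1, LIF and MCM2, the genes of the longest marked runs and of the peaks reaching most genes, and up to 10 genes marked only through IgG-overlapping peaks. Some genes and a sequence that this rule covers are not reported here. Other genes were named after their values were seen. These include the members of the Notch, AP-1, YAP and TEAD, hnRNP, interleukin, keratin and tissue-restricted lists beyond the leading 2. Alternatives were other distances, IgG rules, score filters, TSS and gene sets, overlap rules and promoter windows. Overlap, distance and assignment functions were tested on simulated data. Python 3.11.15, pandas 2.3.3, numpy 2.4.6, scipy 1.17.1 and samtools 1.23.1 were used.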

Additional observations from a re-analysis of the deposited data

How the results depend on the processing

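The share of marked genes, 30.8% as reported, was 27.7% when a peak had to cover the TSS, 32.4% within 3 kb, 31.9% without IgG removal, 19.4% for peaks at or above the median score of 912, 28.9% with 1 TSS per gene and 26.3% when a peak counted only for its nearest TSS. The share of TAF4 peaks near a TSS, 51.1% as reported, was 43.7%, 55.7%, 47.3%, 60.4% and 46.8% under the first 5 of these. SBNO1 overlap of promoter peaks, 64.9% as reported, was 66.3% without IgG removal, 72.5% at or above the median score and 54.7% when each peak had to cover at least 50% of the other. CpG-rich promoters made up 86.7% of marked genes, in place of 88.7%, when the window was set at the TSS nearest to the peak. The score filter keeps fewer peaks, and the causes of the other shifts were not tested beyond what each rule adds or removes.

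The 24 lists above the share of all genes were the same 24 under each of the 7 alternatives tried for lists, and 12 chromosomes were above it under both alternatives tried for chromosomes. Taken relative to the share of all genes under the same alternative, 281 values of single lists stayed within the reported interval and 13 did not, as did 41 and 5 values of single chromosomes, and none with an interval off the share of all genes changed side. No paired analysis was possible because 1 library represents each antibody. With 1 pooled library and unknown depth, a gene without a peak cannot be told apart from a gene whose peak missed the threshold, and no share carries biological error.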
